A study of Mus musculus with 6 samples.

Results

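The genes described here encode the MAP kinase cascades and the dual-specificity phosphatases, taken from the liver count table by name: every gene whose symbol was Map4k, Map3k, Map2k or Mapk followed by a number, and every gene whose symbol was Dusp followed by a number. This gave 61 of the 15454 genes in the table, of which 41 were kinases and 20 were phosphatases. The kinases were read by tier, as 5 Map4k, 17 Map3k, 7 Map2k and 12 Mapk genes. The phosphatases were read as 10 genes of the MAP kinase phosphatase (MKP) class, which bind MAP kinases through a dedicated domain (Dusp1, Dusp2, Dusp4 to Dusp10 and Dusp16), and 10 other Dusp genes. All livers came from male C57BL/6 mice aged 8 to 10 weeks in which blood flow to 75% of the liver had been stopped at body temperature and then restored (I/R). In the I/R group 3 mice had been given vehicle, and in the I/R+Rk2 group 3 mice had been given ginsenoside Rk2, a saponin of ginseng, dissolved in that vehicle. Both were given 2 days ahead of the operation and once more when perfusion began. The treated livers belonged to the higher of the dose groups of the study, whose methods, unlike the labels, set out the dose and the time of reperfusion. No sham-operated liver was analysed here, so each difference is between treated and untreated injured livers.

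A MAP kinase cascade passes a signal along a chain of kinases, in which a Map4k or a small GTPase engages a Map3k, the Map3k phosphorylates a Map2k, and the Map2k phosphorylates both a threonine and a tyrosine of a MAP kinase. The ERK branch answers growth factors, while the JNK and p38 branches answer cytokines, reactive oxygen and other stresses of the kind that a reperfused liver meets. Dual-specificity phosphatases of the MKP class remove both phosphates again, and several of them are themselves transcribed in response to MAP kinase activity. Transcripts were measured, and neither protein nor phosphorylation was, so the values say nothing of the activity of any kinase.

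The deposited counts summed to between 16809613 and 35618074 per library. Normalised read counts are given as counts per 1000000 (CPM) of the library size after TMM scaling (trimmed mean of M values), and at these depths 3 counts stood for 0.0888 to 0.184 CPM. Fold changes, on the log2 scale with their standard error (SE), set I/R+Rk2 over I/R, and a gene is said to have risen or fallen where the edgeR quasi-likelihood test gave a Benjamini-Hochberg adjusted p below 0.05 over the 12411 genes tested. Hepatocyte markers were the most abundant of the marker lists in every library, at a summed 62278 to 72872 CPM in I/R and 96382 to 117291 CPM in I/R+Rk2 livers, and 5 of 8 rose while 1 fell. Of the hepatocyte rises, those of Ttr and Asgr1 kept their calls in every alternative fit. Those of Alb and Serpina1a (limma adjusted p up to 0.170 and 0.409) and of Cps1 (edgeR adjusted p up to 0.0773) were lost in several. All 10 monocyte markers fell, 9 of them over 2-fold, with a median log2 fold change of -4.10. Their sum went from 1779 to 2120 CPM to 1176 to 1236 CPM, but most of it was Fn1. Fn1 fell from a mean of 1609 to 1150 CPM (log2 fold change -0.49). It lost its call when a trend with transcript length was removed (edgeR adjusted p = 0.204). Itgam lost its call in the fits on values scaled by transcript length (limma adjusted p = 0.237 to 0.410). Among neutrophil markers 9 of 10 fell, from a summed 576 to 696 CPM to 108 to 249 CPM. The fall of Mmp9 lost its call without any of several single livers (edgeR adjusted p up to 0.103). Kupffer cell markers summed to 79.9 to 124 CPM and to 65.6 to 80.2 CPM, and 1 of 9 fell. Of the endothelial markers 4 of 8 rose and 3 fell, while 3 of 8 stellate and 3 of 6 cholangiocyte markers fell. The calls of Kdr, Oit3, Rgs5, Epcam and Cftr among these were lost in at least 1 alternative fit. T and NK cell markers summed to at most 1.81 CPM and B cell markers to at most 1.42 CPM, and none of either list had enough counts for a test. No marker of the lists was at 0 in all 3 I/R+Rk2 livers. In RNA from whole tissue, fewer cells of a type and less RNA per cell cannot be told apart, and the part of these marker shifts in the results for kinases and phosphatases was not tested.

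Of the 61 genes, 57 had enough counts for a test and 31 changed (54.4%, against 43.9% of all genes tested), 24 of them downward and 7 upward. The fallen share was 42.1% of the tested members, against 23.7% of all genes tested, and the risen share was 12.3%, against 20.3% of all genes. Among kinases 14 of 39 fell (35.9%) and 3 rose (7.69%), with a median log2 fold change of -0.26. Among phosphatases 10 of 18 fell (55.6%) and 4 rose (22.2%), with a median of -0.73, compared with a median of -0.01 over all genes tested. With a fold change above 2 in addition, the limits that the study applied to these livers, 12 members fell and 1 rose, which is 21.1% and 1.75% of those tested against 11.4% and 3.17% of all genes. Map3k2 lay just inside the fold limit, while Dusp14 and Dusp10 lay just outside it. The livers of the groups did not overlap in 42 of 57 members (73.7%), against 57.4% of all genes. Of the 24 falls, 22 kept their call in every alternative fit that tested them and 2 (Map2k1 and Dusp14) did not, whereas each of the 7 rises lost its call in at least 1 alternative. Scaling by library size alone, and fits on values scaled by transcript length, moved the median of all genes down to between -0.17 and -0.05. Mapk15 and Dusp23 lost their calls only in fits of these kinds.

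**Figure D1:**
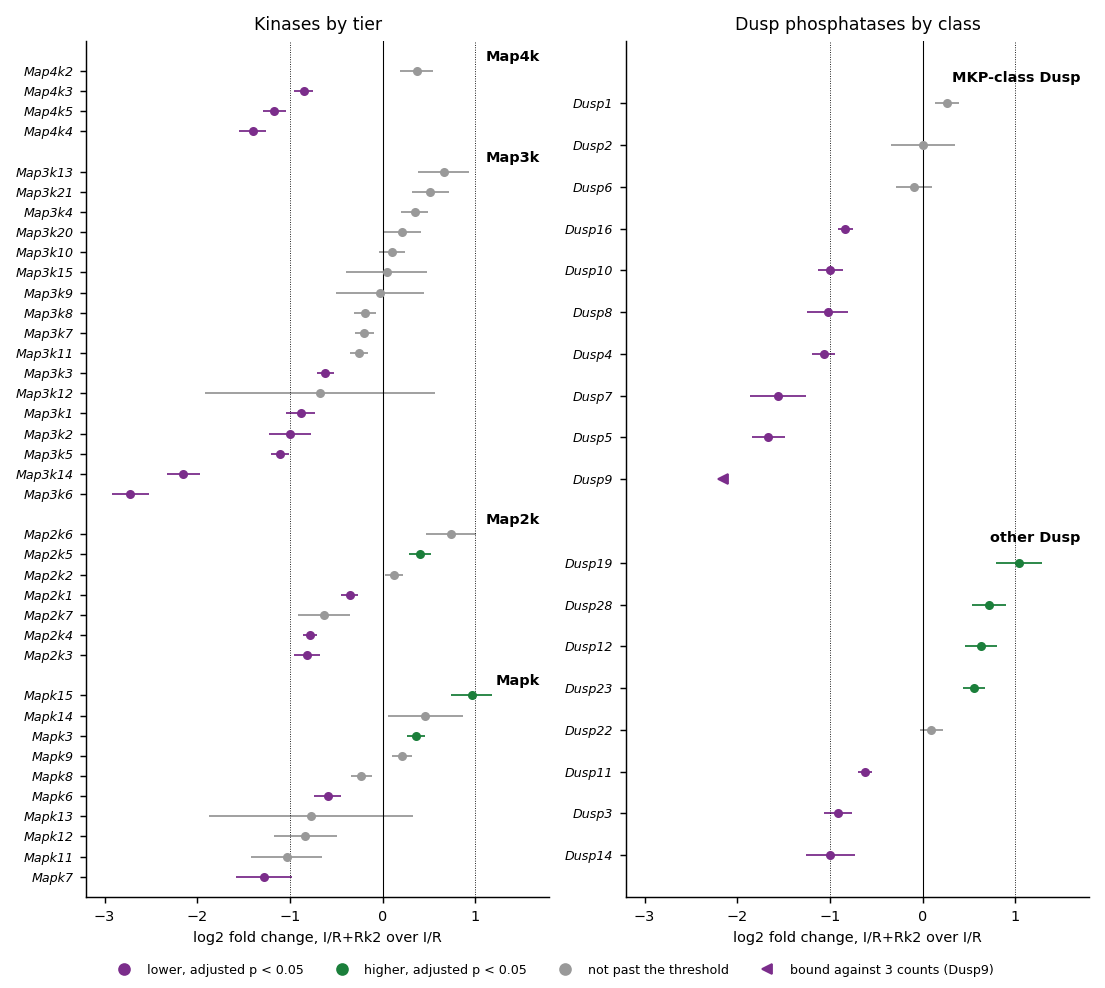
Log2 fold change (I/R+Rk2 over I/R, x axis) of 56 of the 57 tested members, with kinases by tier on the left and Dusp phosphatases by class on the right; bars are the standard error, colours mark the edgeR call, dotted lines mark a 2-fold change and the arrowhead marks Dusp9 at its bound. The 7 MKP-class genes that fell and the 3 Map4k genes that fell lie left of zero, while the 7 rises are all smaller than the falls of Map3k6 and Map3k14.

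The Map4k tier, kinases of the Ste20 family that stand above the JNK branch, was lower in 3 of its 4 tested members. This was 75.0%, against 23.7% of all genes tested. Map4k4 (chr1:39900913-40026310), the most abundant of the tier per length, stood at 39.5, 40.0 and 44.8 CPM in the I/R livers and at 17.7, 12.4 and 17.1 CPM in the I/R+Rk2 livers. Its levels were separated by more than the whole spread within either group, and it fell by 1.40 on the log2 scale (SE 0.15, edgeR adjusted p = 0.000787). Map4k5 (chr12:69803750-69893200) stood at 31.6, 28.02 and 30.9 CPM in I/R and at 15.4, 12.8 and 12.0 CPM in I/R+Rk2. The groups were again apart, with a log2 fold change of -1.17 (SE 0.12, edgeR adjusted p = 0.000753). Map4k3, which is known for its link to amino acid signalling, fell by 0.85 on the log2 scale (edgeR adjusted p = 0.00114). Map4k2 did not pass, at 4.66 ± 0.41 against 5.98 ± 1.08 CPM (SD, n = 3; edgeR adjusted p = 0.131), although its livers did not overlap, and its log2 fold change of 0.37 turned to between -0.18 and -0.14 in the fits on fragments per kilobase of transcript per 1000000 fragments (FPKM). Map4k1, a kinase of blood cells, had at most 0.439 CPM in any liver and was not tested.

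In the Map3k tier 6 of 17 members fell (35.3%, against 23.7% of all genes tested) and none rose (against 20.3%). Of the falls 4 exceeded 2-fold (23.5% of the tier, against 11.4% of all genes). Map3k6 (chr4:133240818-133252929), which encodes ASK2, the partner of ASK1, stood at 15.7, 15.02 and 12.8 CPM in I/R and at 2.77, 2.04 and 1.72 CPM in I/R+Rk2. Its lowest I/R liver was above its highest I/R+Rk2 liver by a wide margin, and its log2 fold change of -2.72 (SE 0.20, edgeR adjusted p = 0.000259) was the largest fall of any kinase here. Map3k14 (chr11:103219762-103267472), which encodes NIK, the kinase of the non-canonical NF-κB pathway, stood at 13.7, 9.72 and 11.9 CPM in I/R and at 2.73, 2.37 and 2.89 CPM in I/R+Rk2. All 3 treated livers lay close together and far below the others, and it fell by 2.15 on the log2 scale (SE 0.18, edgeR adjusted p = 0.000373). It shares 135 exon bases with 1700028N14Rik on the same strand, so a part of its counts could belong to that gene.

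Map3k5 (chr10:19934472-20142753) encodes ASK1, a kinase held inactive by thioredoxin and released by oxidative stress, and it stood at 54.0, 46.8 and 52.3 CPM in I/R and at 21.9, 24.5 and 24.4 CPM in I/R+Rk2. The groups did not overlap, and it fell by 1.11 on the log2 scale (SE 0.10, edgeR adjusted p = 0.000445). Map3k5 and Map3k14 were among the cell death genes shown by the study from this same experiment, so their direction is not independent evidence. Map3k2 (chr18:32163089-32236751), which encodes MEKK2, an activator of the ERK5 branch, stood at 25.3, 16.9 and 19.6 CPM in I/R and at 7.44, 11.7 and 11.8 CPM in I/R+Rk2. The spread within groups was wider than for Map3k5, and the gene fell by 1.0003 on the log2 scale (SE 0.22, edgeR adjusted p = 0.0109). Map3k1 and Map3k3, which encode the related kinases MEKK1 and MEKK3, fell by 0.88 and 0.62 on the log2 scale (edgeR adjusted p = 0.00457 and 0.00275).

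Map3k7 encodes TAK1, which carries signals from cytokine and Toll-like receptors to JNK, p38 and NF-κB. It stood at 32.9, 31.4 and 33.2 CPM in I/R and at 25.6, 27.6 and 32.0 CPM in I/R+Rk2. One treated liver reached the range of the I/R livers, and the log2 fold change of -0.20 did not pass (edgeR adjusted p = 0.163). With library size alone it was -0.36 and passed (edgeR adjusted p = 0.0415), and with the length trend removed it turned to 0.13. The remaining 10 members did not pass, with log2 fold changes from -0.68 for Map3k12 to 0.66 for Map3k13. Among them Map3k8, which encodes TPL2, stood at 9.68 ± 0.10 against 8.49 ± 0.85 CPM, and Map3k11, which encodes MLK3, at 36.9 ± 3.62 against 30.9 ± 1.37 CPM (SD, n = 3), both without overlap between groups. Map3k4, the MEKK4 gene, passed without I/R replicate 1 (log2 fold change 0.48, edgeR adjusted p = 0.0358), while Map3k13 passed without I/R+Rk2 replicate 1 (0.83, edgeR adjusted p = 0.0439). With the length trend removed 3 members passed as rises, namely Map3k4 (0.66, edgeR adjusted p = 0.00722), Map3k13 (1.02, 0.0264) and Map3k21 (0.85, 0.0143). Map3k11 passed as a fall with library size alone (-0.42, edgeR adjusted p = 0.0431). Map3k12 ranged from 0.178 to 4.57 CPM with high and low livers in both groups, and it shares 1573 exon bases with Pcbp2 on the opposite strand, so its counts are uncertain where strand was not used. Its log2 fold change was -3.03 if I/R+Rk2 replicate 3 was left out and 0.70 if I/R replicate 2 was.

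**Figure D2:**
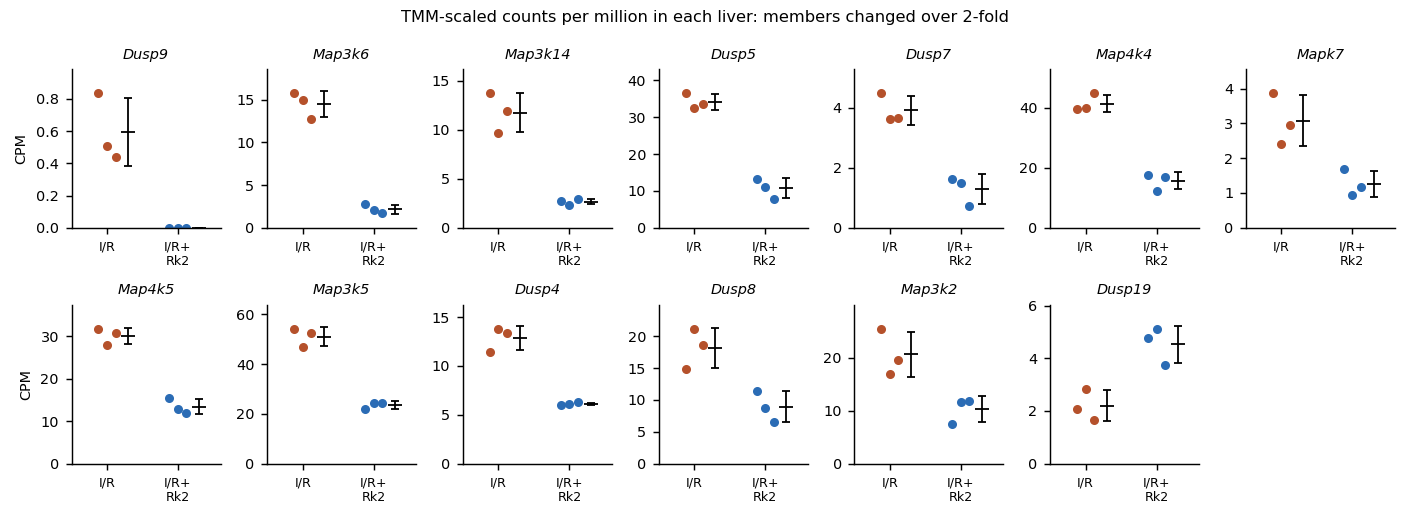
TMM-scaled CPM (y axis, from 0) of the 13 members that changed over 2-fold, in each of the 3 I/R livers (red) and the 3 I/R+Rk2 livers (blue); bars show the mean and SD. In each of the 13 panels the groups do not overlap, and Dusp19 is the single member that is higher in I/R+Rk2.

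Among the 7 Map2k genes, which encode the dual-specificity kinases of the cascade, 3 fell (42.9%) and 1 rose (14.3%), and no change reached 2-fold. Over all genes tested 23.7% fell and 20.3% rose. Map2k1 encodes MEK1, which phosphorylates kinases of the ERK branch, and it stood at 58.5, 50.4 and 50.9 CPM in I/R and at 42.7, 40.5 and 41.5 CPM in I/R+Rk2. The treated livers all lay below the others, and it fell by 0.36 on the log2 scale (SE 0.09, edgeR adjusted p = 0.0174). The call was lost without I/R replicate 1 (-0.27, edgeR adjusted p = 0.0596) or I/R+Rk2 replicate 2 (-0.33, edgeR adjusted p = 0.0598). Map2k2, which encodes MEK2, was the most abundant member of the tier per length in both groups and did not pass, at 72.9 ± 1.53 against 79.3 ± 9.14 CPM (SD, n = 3; edgeR adjusted p = 0.359). Its log2 fold change of 0.12 was -0.04 with library size alone and between -0.11 and -0.10 in the FPKM fits.

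Map2k3, an activator of p38, fell by 0.82 on the log2 scale (71.4 ± 4.71 to 40.5 ± 7.78 CPM, SD, n = 3; edgeR adjusted p = 0.00432). Map2k4, an activator of JNK, fell by 0.79 (63.5 ± 2.15 to 36.8 ± 0.81 CPM; edgeR adjusted p = 0.000593). The other activator of each branch did not pass. Map2k6, which also acts on p38, stood at 2.21 ± 0.67 against 3.66 ± 0.63 CPM (log2 fold change 0.73; edgeR adjusted p = 0.0617), but it passed without I/R replicate 3 (1.002, edgeR adjusted p = 0.0331) or with upper-quartile scaling (edgeR adjusted p = 0.0481). Map2k7, which also acts on JNK, stood at 24.0, 23.3 and 21.4 CPM in I/R and at 8.15, 17.7 and 18.4 CPM in I/R+Rk2. The first treated liver was low, and the log2 fold change of -0.63 (edgeR adjusted p = 0.108) was -0.35 and passed once that liver was left out (edgeR adjusted p = 0.0328). It also passed with library size alone (-0.81, edgeR adjusted p = 0.0462) and in both filtered FPKM fits (limma adjusted p = 0.0472 and 0.0458). In FPKM, with the separate entries of Map2k7 summed, the same 3 livers stood at 5.79, 5.91 and 7.22, so the first treated liver was not low on that scale. The FPKM fits used only the higher of these entries. Map2k7 shares 1349 exon bases with Gm49320 on the same strand. Map2k5, which encodes MEK5 of the ERK5 branch, rose by 0.40 on the log2 scale (10.2 ± 0.86 to 13.5 ± 1.11 CPM; edgeR adjusted p = 0.0325), and it lost its call in 9 alternatives. These included leaving out I/R replicate 1 (edgeR adjusted p = 0.0934), I/R replicate 3 (0.104), I/R+Rk2 replicate 2 (0.0968) and I/R+Rk2 replicate 3 (0.0825).

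Of the 11 tested genes for the MAP kinases themselves, 2 fell (18.2%), 2 rose (18.2%) and 7 did not pass. Neither share exceeded that of all genes tested, at 23.7% lower and 20.3% higher. Mapk3, which encodes ERK1, stood at 19.8, 19.9 and 20.3 CPM in I/R and at 25.6, 27.6 and 23.7 CPM in I/R+Rk2. The treated livers were all higher, and it rose by 0.36 on the log2 scale (SE 0.09, edgeR adjusted p = 0.0199). The call was lost without I/R replicate 2 (edgeR adjusted p = 0.0557), I/R replicate 3 (0.0600) or I/R+Rk2 replicate 2 (0.0756), under library size alone (0.235) and in all 3 FPKM fits.

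The JNK genes did not pass. Mapk8, which encodes JNK1, stood at 15.3, 16.0 and 17.7 CPM in I/R and at 12.99, 14.9 and 13.9 CPM in I/R+Rk2. The treated livers were lower without overlap, by 0.23 on the log2 scale (edgeR adjusted p = 0.134), and the difference passed with library size alone (-0.39, edgeR adjusted p = 0.0415) and in both filtered FPKM fits (-0.37 and -0.44, limma adjusted p = 0.0468 and 0.0438). Mapk9, which encodes JNK2, stood at 15.6, 15.2 and 14.99 CPM in I/R and at 15.9, 18.1 and 19.0 CPM in I/R+Rk2. Here the treated livers were higher without overlap, by 0.21 on the log2 scale (edgeR adjusted p = 0.153). Mapk14, which encodes the main liver p38 kinase, stood at 20.2, 49.5 and 46.8 CPM in I/R and at 30.01, 69.6 and 61.1 CPM in I/R+Rk2. The first liver of each group was the low one, the groups overlapped, and the log2 fold change of 0.46 did not pass (SE 0.40, edgeR adjusted p = 0.383). The length implied by its counts and FPKM was 2179 and 2759 bases in those first livers and 3415 to 3680 bases in the others, so counts and FPKM were not in a fixed ratio for this gene. With the replicate number as a block it passed (0.48, edgeR adjusted p = 0.0148), though the labels do not say that the numbers pair the livers.

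Mapk7, which encodes ERK5 (chr11:61488812-61494406), stood at 3.86, 2.42 and 2.95 CPM in I/R and at 1.68, 0.947 and 1.17 CPM in I/R+Rk2. All treated livers were below all others, and it fell by 1.28 on the log2 scale (SE 0.30, edgeR adjusted p = 0.0133). Its counts and FPKM implied lengths of 2205 to 4211 bases in the livers where this could be computed, so their ratio was not fixed for Mapk7 either. This was not confined to Mapk14 and Mapk7. The longest implied length over the shortest was 1.81 for Map4k2, 1.76 for Mapk9, 1.64 for Dusp7, 1.58 for Map3k14, 1.51 for Map3k6 and 1.46 for Map4k4. Mapk6, which encodes the atypical kinase ERK3, fell by 0.59 (69.8 ± 4.33 to 46.1 ± 8.51 CPM, edgeR adjusted p = 0.0142). Mapk15, the other atypical kinase that changed, rose by 0.96 (3.71 ± 0.49 to 7.22 ± 1.78 CPM; edgeR adjusted p = 0.0112), and it lost its call in the unfiltered FPKM fit (limma adjusted p = 0.0927). The p38 genes Mapk11, Mapk12 and Mapk13 lay at or below 1.76 CPM in every liver and did not pass. Mapk11 was lower in every treated liver (0.825 ± 0.13 against 0.381 ± 0.16 CPM; edgeR adjusted p = 0.0642) and passed without I/R+Rk2 replicate 2 (-1.46, edgeR adjusted p = 0.0495), with library size alone (-1.19, 0.0497) and in the unfiltered FPKM fit (limma adjusted p = 0.0242). Mapk4 was not tested, at no more than 0.702 CPM. Read by branch, 1 of 3 genes of the ERK branch (Map2k1, Map2k2 and Mapk3) fell and 1 rose, 1 of 4 of the JNK branch (Map2k4, Map2k7, Mapk8 and Mapk9) fell, and 1 of 6 of the p38 branch (Map2k3, Map2k6 and Mapk11 to Mapk14) fell, against 23.7% lower and 20.3% higher over all genes tested. The branch counts moved with the scaling. In the JNK branch 3 of 4 genes were lower with library size alone and in both filtered FPKM fits, and in the p38 branch 2 were lower with library size alone, without I/R+Rk2 replicate 2 or in the fit on log2(FPKM + 1), and 3 in the unfiltered FPKM fit.

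**Figure D3:**
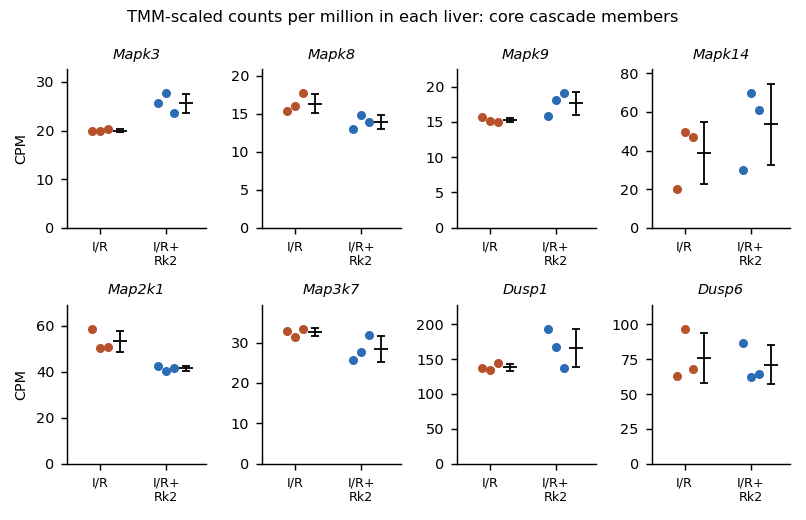
TMM-scaled CPM (y axis, from 0) of core cascade members that did not change over 2-fold, in each of the 3 I/R livers (red) and the 3 I/R+Rk2 livers (blue), where bars show the mean and SD. Map2k1 is lower and Mapk3 higher in all treated livers, Dusp6 overlaps over most of its range, and Mapk14 is low in the first liver of each group.

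In the MKP class 7 of 10 genes fell and none rose, 5 of them over 2-fold. Dusp5 (chr19:53529109-53542431), a nuclear phosphatase that acts on ERK, stood at 36.4, 32.4 and 33.5 CPM in I/R and at 13.3, 10.9 and 7.92 CPM in I/R+Rk2. The groups were far apart, and it fell by 1.66 on the log2 scale (SE 0.18, edgeR adjusted p = 0.000884). Dusp7 (chr9:106368632-106375724), a cytoplasmic ERK phosphatase, stood at 4.48, 3.63 and 3.67 CPM in I/R and at 1.64, 1.51 and 0.737 CPM in I/R+Rk2. It fell by 1.56 without overlap (SE 0.30, edgeR adjusted p = 0.00616). Dusp4 (chr8:34807297-34819894), a nuclear phosphatase, stood at 11.4, 13.7 and 13.4 CPM in I/R and at 6.01, 6.13 and 6.26 CPM in I/R+Rk2. The treated livers were nearly level with one another, and the fall was 1.07 on the log2 scale (SE 0.12, edgeR adjusted p = 0.000994). Dusp9 (chrX:73639419-73643514), a further cytoplasmic phosphatase, was read 16, 13 and 11 times in I/R and not at all in any I/R+Rk2 liver (0 counts). Set against 3 counts in each treated library, it was at least 4.46-fold lower (edgeR adjusted p = 0.00466), at a level of 0.593 ± 0.21 CPM in I/R. It passed the filter on low counts only through its counts in I/R, so its call adds nothing to the counts themselves. With at least 10 counts required in every sample Dusp9 was not tested, and 6 of 9 tested genes of the class fell.

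Among the phosphatases of the class that act on JNK and p38, Dusp8, Dusp10 and Dusp16 fell and Dusp1 did not pass. Dusp8 (chr7:142079490-142095843) stood at 14.8, 21.1 and 18.7 CPM in I/R and at 11.4, 8.70 and 6.57 CPM in I/R+Rk2. The highest treated liver was below the lowest I/R liver, and it fell by 1.03 on the log2 scale (SE 0.22, edgeR adjusted p = 0.00970). Dusp10 fell by 0.996 (13.5 ± 0.64 to 6.72 ± 0.96 CPM; edgeR adjusted p = 0.00185) and Dusp16 by 0.84 (86.6 ± 4.58 to 48.5 ± 1.42 CPM; edgeR adjusted p = 0.000587). The 3 members that did not pass included the 2 most abundant of the class per length. Dusp1, the immediate early phosphatase of p38 and JNK, stood at 137, 134 and 144 CPM in I/R and at 192, 168 and 138 CPM in I/R+Rk2. The third treated liver lay within the I/R range, and the log2 fold change of 0.26 did not pass (edgeR adjusted p = 0.134). Without that liver it was 0.38 and passed (edgeR adjusted p = 0.0292). Dusp6, a cytoplasmic ERK phosphatase and a widely used readout of ERK signalling, stood at 62.8, 96.4 and 68.2 CPM in I/R and at 87.0, 62.1 and 64.2 CPM in I/R+Rk2. The groups overlapped almost entirely (log2 fold change -0.09, edgeR adjusted p = 0.728). Dusp2 stood at 1.36 ± 0.20 against 1.38 ± 0.48 CPM (SD, n = 3; edgeR adjusted p = 0.996).

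Promoter sequences are shown for Dusp5 and Dusp8, which fell, and for Dusp1, which did not pass, because these were the MKP-class genes in which a searched motif was found. RefSeq promoters (GRCm38.p6) were available for 49 of the 61 members as 60 promoters. Each promoter was searched from 250 bases before to 50 bases after its start. Both strands were searched for the AP-1 motif TGACTCA, the cyclic AMP response element (CRE) TGACGTCA, the CArG box and the NF-κB site. The 250 bases before the start are printed. Capitals mark the CArG boxes in Dusp5 and the CRE in Dusp8 and Dusp1, and each sequence runs 5′ to 3′ on the strand of the gene (chr19:53528895-53529144, plus; chr7:142095285-142095534, minus; chr17:26508473-26508722, minus).
Dusp5: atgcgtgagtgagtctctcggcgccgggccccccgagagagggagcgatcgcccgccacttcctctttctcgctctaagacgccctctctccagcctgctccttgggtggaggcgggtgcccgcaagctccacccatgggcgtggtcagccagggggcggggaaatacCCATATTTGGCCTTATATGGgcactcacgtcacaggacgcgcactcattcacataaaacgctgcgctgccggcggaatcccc
Dusp8: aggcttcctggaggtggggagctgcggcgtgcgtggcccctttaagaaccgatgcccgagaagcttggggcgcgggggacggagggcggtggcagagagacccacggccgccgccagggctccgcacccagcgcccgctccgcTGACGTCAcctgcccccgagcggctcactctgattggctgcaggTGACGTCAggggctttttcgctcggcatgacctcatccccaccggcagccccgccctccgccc
Dusp1: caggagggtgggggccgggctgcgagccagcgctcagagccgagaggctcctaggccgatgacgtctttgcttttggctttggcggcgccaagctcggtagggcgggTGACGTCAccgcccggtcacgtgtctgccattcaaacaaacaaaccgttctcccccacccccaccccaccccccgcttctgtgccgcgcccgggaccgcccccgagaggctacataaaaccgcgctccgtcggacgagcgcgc
The adjoining CArG boxes of Dusp5 began 82 and 72 bases before the start, and 1.63% of all 32851 promoters held such a box. The CRE of Dusp8 began 107 and 63 bases before the start and that of Dusp1 at 143 bases, while 1.79% of all promoters held this motif. The motif was thus present both in a gene that fell and in one that did not pass. AP-1 was found in 1 member gene (Map3k10, against 5.2% of all promoters), and the NF-κB site in 5 (Dusp22, Map3k7, Map4k1, Map4k2 and Mapk7, against 8.46%), of which Mapk7 fell and the others did not pass or were not tested. Neither Map3k6 nor Map3k14 held any of the 4 motifs in this window. A match to these letters is a description and not evidence of binding.

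The other Dusp genes went both ways, with 4 rises and 3 falls among 8 tested. Dusp19 (chr2:80617045-80632361), which has been linked to the JNK branch, stood at 2.09, 2.85 and 1.67 CPM in I/R and at 4.75, 5.09 and 3.75 CPM in I/R+Rk2. Every treated liver was above every other, and the rise of 1.04 on the log2 scale (SE 0.25, edgeR adjusted p = 0.0137) was the single rise above 2-fold. The call was lost without I/R+Rk2 replicate 2 (0.95, edgeR adjusted p = 0.0515) and in the unfiltered FPKM fit (limma adjusted p = 0.0552), and the gene shares 131 exon bases with Nup35 on the same strand. Dusp28 rose by 0.72 (3.51 ± 0.71 to 5.77 ± 0.30 CPM; edgeR adjusted p = 0.0192), with the call lost without I/R replicate 1 (0.0528) or I/R+Rk2 replicate 2 (0.0633), under library size alone (0.0632) and in 2 FPKM fits (limma adjusted p = 0.0510 and 0.0791). Dusp12 rose by 0.63 (7.05 ± 0.86 to 10.9 ± 1.99 CPM; edgeR adjusted p = 0.0247), with the call lost without I/R replicate 2 (0.0745), I/R replicate 3 (0.0670), I/R+Rk2 replicate 1 (0.0632) or I/R+Rk2 replicate 3 (0.0676), under library size alone (0.101) and in all 3 FPKM fits (limma adjusted p = 0.121 to 0.168). On the opposite strand Dusp12 shares 891 exon bases with Gm9929 and 474 with Gm26620, so its counts are uncertain where strand was not used. Dusp23 rose by 0.56 (8.63 ± 0.57 to 12.7 ± 0.97 CPM, edgeR adjusted p = 0.00878) and kept its call when any single liver was left out, though not under library size alone (0.0723) or in the FPKM fits.

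Dusp3, which encodes VHR, a small phosphatase that acts on ERK and JNK, fell by 0.91 on the log2 scale (56.2 ± 4.42 to 29.9 ± 6.14 CPM; edgeR adjusted p = 0.00353). Dusp11, whose product removes phosphates from the 5′ end of RNA rather than from MAP kinases, fell by 0.62 (59.8 ± 1.33 to 38.9 ± 1.37 CPM, edgeR adjusted p = 0.00124). Dusp14 fell by 0.996 (4.27 ± 1.15 to 2.12 ± 0.42 CPM; edgeR adjusted p = 0.0212). Its call was lost without I/R replicate 1 (-0.79, edgeR adjusted p = 0.0687), I/R replicate 3 (0.0582), I/R+Rk2 replicate 2 (0.0650) or I/R+Rk2 replicate 3 (0.0576). Dusp22 did not pass (9.76 ± 1.08 against 10.4 ± 0.41 CPM; edgeR adjusted p = 0.560), and Dusp15 and Dusp18 were not tested, at no more than 0.439 CPM in any liver.

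Levels of different genes were compared per length, as FPKM summed over each tier in each liver. The Map4k sum was 36.6, 32.8 and 34.2 in I/R and 18.9, 14.1 and 15.1 in I/R+Rk2, a log2 ratio of the means of -1.11. The Map3k sum went from 61.3 ± 7.14 to 40.8 ± 1.21 (log2 ratio -0.59) and the Map2k sum from 134 ± 4.65 to 96.6 ± 10.2 (log2 ratio -0.48). For the Mapk tier the sum was 86.8, 87.5 and 83.5 in I/R and 76.4, 83.7 and 76.8 in I/R+Rk2, where the groups overlapped (log2 ratio -0.12, two-sided exact permutation p = 0.2). The sum of the MKP class went from 152 ± 6.58 to 119 ± 16.2 (log2 ratio -0.36) and that of the other Dusp genes from 52.2 ± 6.54 to 43.0 ± 1.81 (log2 ratio -0.28). Apart from the Mapk tier the groups did not overlap, and each two-sided exact permutation test gave p = 0.1, the smallest value that 3 against 3 allows. On the log2(FPKM + 1) scale the median of all genes tested was itself -0.13, against -0.01 for counts, so the ratios of FPKM are to be read relative to that shift. For the other Dusp genes the summed FPKM and the median log2 fold change of the counts (0.33) differed in sign.

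**Figure D4:**
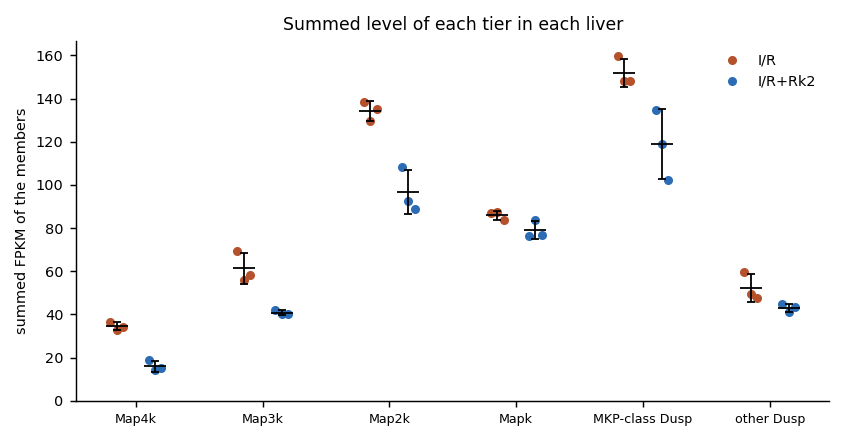
Summed FPKM of the members of each kinase tier and each phosphatase class (y axis, from 0) in the 3 I/R livers (red) and the 3 I/R+Rk2 livers (blue), with the mean and SD. The groups lie apart in each set other than Mapk, with the Map4k sum going from 34.5 to 16.0.

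Within the tiers the make-up of the summed FPKM moved with these changes. Dusp1 held 46.0% ± 3.56 of the MKP-class sum in I/R and 61.3% ± 2.21 in I/R+Rk2 (SD, n = 3), while Dusp16 went from 15.01% to 8.82% and Dusp5 from 9.02% to 3.21%. Dusp6 kept a similar share, at 19.1% ± 4.05 and 20.03% ± 2.16. In the Map3k tier the share of Map3k5 went from 15.9% to 9.72% and that of Map3k6 from 7.11% to 1.37%, and Map3k11 became the largest at 17.7%. Map2k2 went from 29.8% ± 1.38 to 38.8% ± 4.56 of the Map2k sum. Among MAP kinases Mapk6 went from 22.8% ± 1.98 to 14.5% ± 2.51 of the sum and Mapk3 from 14.6% ± 1.15 to 18.9% ± 1.10. Among the other Dusp genes Dusp3 was the largest in both groups, at 31.9% and 20.04%. These shares are descriptions and were not tested.

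Transcript length moved with the direction of change. For 54 members the length implied by counts and FPKM could be computed, and across these genes Pearson's r of log2 length with log2 fold change was -0.27 and Spearman's rho -0.31, compared with -0.15 and -0.25 across 12166 genes. The genes share their libraries and are not independent replicates. Of 13 members under 2000 bases 6 rose and 2 fell (median 0.21), of 25 between 2000 and 4000 bases 1 rose and 13 fell (median -0.62), and of 16 above 4000 bases none rose and 8 fell (median -0.65). Over all genes in these length ranges 29.97%, 19.6% and 10.7% rose and 14.8%, 24.2% and 34.7% fell, with medians of 0.21, -0.03 and -0.27. The part of length in the calls of single members was not tested beyond the fit that follows. When a trend with length was removed within each library, the falls stayed at 14 kinases and 10 phosphatases, against 18.8% of all genes lower, and the rises came to 7 kinases and 4 phosphatases, against 23.1% higher. The 2-fold falls went from 12 to 8.

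**Figure D5:**
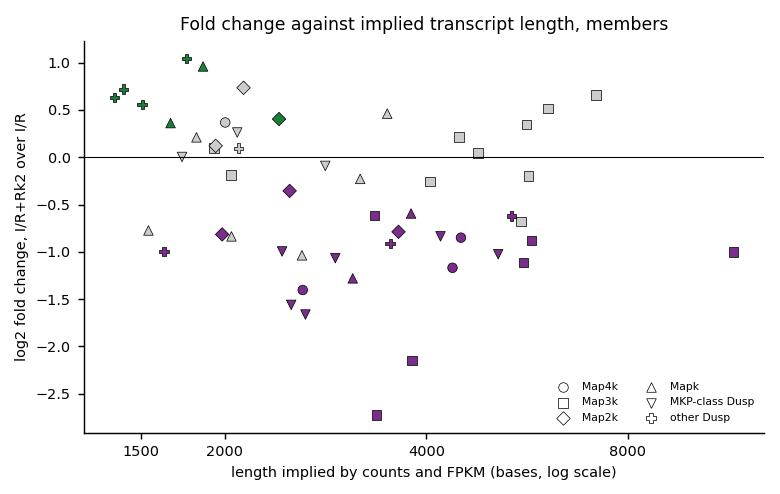
Log2 fold change (I/R+Rk2 over I/R, y axis) against the transcript length implied by counts and FPKM (bases, log scale, x axis) for 53 members; shapes give the tier or class, green marks a rise, purple a fall and grey no call. Of the members under 2000 bases 6 rose, and none of the 16 above 4000 bases did.

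Genes that act beside the cascades were read from lists of known components, and their counts are to be read against the 23.7% of all genes tested that fell and the 20.3% that rose. Of 16 RAS and RAF genes 6 fell (37.5%) and 1 rose (6.25%). Nras, a RAS GTPase upstream of ERK, fell by 1.40 (46.0 ± 2.49 to 17.5 ± 3.84 CPM; edgeR adjusted p = 0.00114), and Rras2 fell by 0.78. The rise was that of Rras (0.30, edgeR adjusted p = 0.0485). Of 12 genes that restrain RAS and ERK 5 fell (41.7%) and 1 rose (8.33%). Spry2 (-1.25, edgeR adjusted p = 0.00108), Spred1 (-0.99, 0.000587) and the RAS GTPase-activating gene Rasa2 (-1.45, 0.00185) were among the falls, and Pebp1, which encodes the RAF kinase inhibitor protein, rose (0.50, edgeR adjusted p = 0.00988). Of 18 genes that stand above JNK and p38, Pak2 (-1.20), Gadd45g (-1.13), Traf6 (-0.31) and Rac1 (-0.27) fell and Mink1 (0.39) rose, so that the fallen share (22.2%) was close to that of all genes. Among 11 tested scaffolds 4 fell (36.4%) and 2 rose (18.2%), with Flna (-1.59), Iqgap1 (-2.24) and Ksr1 (-1.24), the ERK scaffold, among the falls, and with Mapk8ip1 (1.54), the JNK scaffold, and Lamtor2 (0.29) as the rises.

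Lists of genes downstream of the kinases were read in the same way. Of 10 kinases activated by MAP kinases 5 fell and 1 rose. Rps6ka3, which encodes RSK2, fell by 2.18 on the log2 scale (19.7 ± 4.49 to 4.31 ± 0.76 CPM; edgeR adjusted p = 0.000593), Mapkapk3 by 1.12 and Mapkapk2, which encodes the p38 target MK2, by 0.60, while Rps6ka1 rose by 0.41. Of 17 transcription factors that MAP kinases phosphorylate 8 fell (47.1%) and 1 rose (5.88%), with Ets2 (-0.86), Myc (-0.69) and Max (-0.81) among the falls. The rise was that of Creb1 (1.32, edgeR adjusted p = 0.0147), which in all 3 FPKM fits passed as a fall instead (down to -0.80). Of 11 tested transcripts that ERK is known to induce 5 fell (45.5%), none rose and the others did not pass. The falls were those of Ier3 (66.9 ± 5.29 to 13.7 ± 4.62 CPM, -2.28, edgeR adjusted p = 0.000611), Fosl1 (-2.40), Spry2 (which stands in the list of inhibitors too), Phlda1 (-0.96) and Epha2 (-0.58). The summed level of the 12 transcripts listed overlapped between the groups, at 786 to 1066 CPM in I/R and 922 to 1048 CPM in I/R+Rk2. Of 8 tested phosphatases of other families that act on MAP kinases Ptpn1 (-1.88, edgeR adjusted p = 0.000463), Ppp2cb (-0.78) and Ptpn7 (-2.70) fell (37.5%) and Ppm1b (0.61) rose (12.5%). Several of these changes, among them the large rises of Mapk8ip1 and Creb1, did not hold in each alternative. Mapk8ip1 lost its call in 7 of the 14 alternatives that tested it. The calls of Rras, Traf6, Rac1, Mink1, Mapk8ip1, Lamtor2, Rps6ka1 and Epha2 were lost without any of several single livers, with adjusted p-values of up to 0.167, and that of Creb1 without I/R replicate 3 (0.0503). Over all 17 alternatives Rras and Lamtor2 each lost the call in 14 (adjusted p up to 0.405 and 0.539), Traf6 in 9 (up to 0.810), Mink1 in 8 (up to 0.735), Rps6ka1 in 8 (up to 0.361) and Rac1 in 7 (up to 0.132). Traf6 turned to 0.03 with the length trend removed. Rps6ka3 lost its call in 2 FPKM fits (up to 0.0926).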

How the data were processed

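Liver RNA of 3 I/R and 3 I/R+Rk2 mice was sequenced. Per the labels, 250 ng of total RNA per liver entered an MGI library kit, and the submitters' processing notes name FastQC 0.11.5, HISAT2 2.2.1, StringTie 1.3.3 and mm10. The annotation and strand setting are not given in the sources used here. Several called members share exon bases with a gene on the opposite strand. Examples are Dusp3 (604 with Gm20659), Map4k5 (548 with Atl1) and Dusp5 (547 with AC137853.2). The authors deposited unnormalised counts per gene (15454 genes) and FPKM values (21948 entries), which are scaled by transcript length and by library. Of the names in the count table, 21 had turned into dates. Names matching the members' pattern in the FPKM table alone (6) were at 0 throughout.

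Counts were tested in R 4.3.3 with edgeR 4.0.16 (filterByExpr, TMM, quasi-likelihood F test, no covariates, all 6 libraries), and p-values were adjusted over 12411 genes. The standard error is the absolute log2 fold change divided by the square root of F. A fold against a group at 0 was computed against 3 counts in each library, a limit that covers no more than counting error, as PCR duplicates are not separate molecules. Libraries of a group differed by a chi-square of 31.4 to 74.8 per degree of freedom, so each counted as 1 replicate. The labels name single livers and say nothing of litters or batches. FPKM were tested with limma 3.58.1 on log2(FPKM + 1), mean FPKM of at least 0.5. Summed FPKM were compared by exact permutation tests, two-sided. Alternatives were other scalings, other filters, DESeq2 1.42.0, a replicate block, removal of the length trend, smaller pseudocounts and leaving out each liver. Coordinates are from GENCODE M21 (GRCm38). The statistics were checked on simulated data.

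Any member could be named. Members past an adjusted p of 0.05 and a 2-fold change, and 10 core members, are given in every liver. A gene of the members (1) is included in counts and sums but is not reported here by itself. Of each list of other pathway genes at most 3 per direction with the smallest p were taken, and all of those called where a list had 5 or fewer. The members and lists were chosen with earlier results of these data known.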

Additional observations from a re-analysis of the deposited data

How the results depend on the processing

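The counts of falls kept within 1.5 times their values (14 kinases and 10 phosphatases) in all 17 alternatives. The 3 kinase rises came to 1 with library size alone, 7 with the length trend removed, 1 in both filtered FPKM fits and 0 in the unfiltered one, and the 4 phosphatase rises to 1, 4, 2 (pseudocount 1), 1 (pseudocount 0.1) and 0. The single 2-fold rise came to 2 with upper-quartile scaling or the length trend removed, and to 0 under library size alone and in each FPKM fit, and the 12 2-fold falls to 7 in the fits on log2(FPKM + 1), with or without a filter, 14 with pseudocount 0.1, 8 with the length trend removed and 18 with library size alone. Leaving out 1 liver gave 1 to 4 kinase rises, 2 to 4 phosphatase rises and 0 to 2 2-fold rises. The lowest of each came without I/R+Rk2 replicate 2, and the 2 such 2-fold rises without I/R replicate 2 or I/R+Rk2 replicate 1. The labels do not say whether the replicate numbers pair the livers. Correlations of deviations were -0.0615, -0.0021 and -0.0649 for equal numbers and -0.0371 to 0.0875 for unequal ones. With 3 livers per group these values cannot decide it. With a replicate block 3 kinases rose and 14 fell, 4 phosphatases rose and 10 fell, and 13 members fell over 2-fold.

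Of 933 values of 56 single members over the alternatives 833 kept direction and call, 42 lost the call, 23 gained it and 35 changed sign, the last in 11 members that did not pass. With library size alone the log2 fold change was -0.0671 for Map3k10, -0.12 for Map3k15, -0.0387 for Map2k2, -0.14 for Dusp2 and -0.0642 for Dusp22. In the FPKM fits (pseudocount 1, then 0.1, then unfiltered) it was -0.14, -0.18 and -0.14 for Map4k2, -0.10, -0.11 and -0.10 for Map2k2, -0.0780, -0.18 and -0.0780 for Dusp2, and -0.23, -0.27 and -0.23 for Dusp22, and -0.0140 for Map3k15 unfiltered. With the length trend removed it was 0.13 for Map3k7, -0.0358 for Dusp2 and 0.0141 for Dusp6. Upper-quartile scaling gave 0.0256 for Map3k9, and Dusp2 was -0.0272 with at least 10 counts in every sample and -0.0339 with the replicate block. Leaving out 1 liver gave -0.50 to 0.26 for Map3k9, -3.03 to 0.70 for Map3k12, -0.28 to 0.42 for Map3k15, -2.20 to 0.19 for Mapk13, -0.27 to 0.28 for Dusp2 and -0.27 to 0.12 for Dusp6. The cause was not tested. Library size alone moved the median of all genes to -0.17 and the FPKM fits to between -0.16 and -0.05. No tier's summed FPKM changed direction when rescaled to a sum of 1000000 per library or when a liver was left out, the alternatives run for it. Depth limits Dusp9, Mapk11, Mapk13 and the 4 members not tested.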
